A study of Mus musculus with 12 samples.

Results

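Tibialis anterior muscle of tumour-bearing mice fed ursolic acid was compared with the same muscle of tumour-free mice, to ask what still differed from tumour-free muscle under the treatment. The comparison used 8 of the 12 RNA sequencing libraries of the study, 4 labelled KPC_UA and 4 labelled Sham, and all 13583 genes listed in the authors' deposited table for these groups. All mice were C57BL/6J. KPC_UA mice had KPC cells, a mouse pancreatic cancer line, injected into the surgically exposed pancreas and ate standard chow with ursolic acid, a plant triterpenoid. Sham mice carried no tumour and ate standard chow without ursolic acid, so tumour and diet differ together between these groups and cannot be told apart within this comparison. The remaining 4 libraries, labelled KPC, came from tumour-bearing mice on standard chow and are used where a value needs the tumour without the compound. Tumours grew from an injected cell line, and the labels give no age, no ursolic acid dose and no time of dissection. Samples are labelled as separate replicates but not as different mice, so the p-values measure the spread between these samples only.

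Cachexia, the wasting that accompanies many cancers, reduces the mass of skeletal muscle. Wasting muscle typically raises the ubiquitin ligases atrogin-1 (Fbxo32) and MuRF1 (Trim63), which mark muscle proteins for the proteasome and are driven by FOXO transcription factors, while growth signals such as Igf1 decline. Circulating cytokines of the interleukin-6 family and glucocorticoids feed into the same programme, and interstitial fibroblasts make the collagen matrix around the fibres.

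The libraries held 23.8 to 29.4 M reads in listed genes in Sham and 25.6 to 28.3 M in KPC_UA. Values are normalised read counts, that is, reads divided by one size factor per library, and a fold change is a difference of group means of log2(value + 1). All 8 muscle fibre markers, among them Acta1, Ckm and Myh4, were listed and none was at 0, and their summed value was 3670000 to 4380000 in Sham and 3540000 to 4340000 in KPC_UA. Sham replicate 1 held liver transcripts, a list of 10 genes chosen after their values were seen, at a summed value of 1692, against at most 37.1 in the other 7 libraries. The first principal component (28.2% of variance) set Sham replicate 1 (41.6) and KPC_UA replicate 2 (28.2) apart from the others. Those lay between -25.6 and -2.79 on it, KPC_UA replicate 1 at -9.62. On the second component (23.2% of variance) KPC_UA replicate 1 stood nearer to Sham than the other KPC_UA libraries. There the Sham libraries lay between 8.01 and 23.4, KPC_UA replicate 1 at 6.74, and KPC_UA replicates 2, 3 and 4 at -18.6, -29.9 and -22.6. Where leaving out a library changed the DESeq2 call on a gene whose values are given below, the adjusted p without it is given. KPC_UA replicate 1 was singled out from these same values, so a call made without it is no separate support.

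Few genes were called between the treated tumour-bearing muscle and tumour-free muscle with 4 libraries per group, and which test was used decided whether any were. Of 13567 genes with a mean value of at least 10, limma called none (0%) at an adjusted p under 0.05. The smallest adjusted p of limma was 0.0966, and 1077 genes (7.94%) had an unadjusted p under 0.05, 479 of them higher (3.53%) and 598 lower (4.41%) in KPC_UA. The quasi-likelihood test of edgeR on the recovered reads also called 0 genes, with a smallest adjusted p of 0.110 and 1109 genes (8.17%) at an unadjusted p under 0.05. DESeq2 on the same reads called 91 genes (0.671%), 50 higher (0.369%) and 41 lower (0.302%) in KPC_UA, and the authors' deposited table called 94 of 13583 (0.692%). Below, "rose" and "fell" refer to DESeq2 calls, none of which passed limma. The limma adjusted p of the 91 genes ran from 0.0966 to 0.413.

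**Figure D1:**
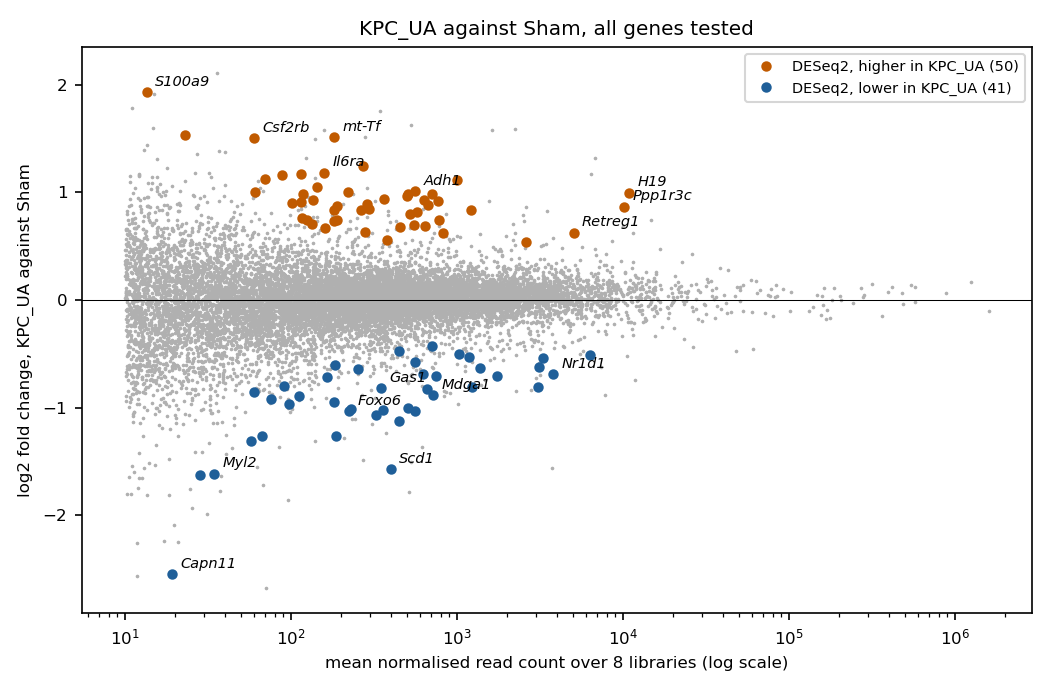
Log2 fold change of KPC_UA against Sham (limma) against the mean normalised read count over 8 libraries on a log axis, one point per gene tested. Orange points mark the 50 genes higher and blue points the 41 genes lower by DESeq2, and most of the other genes lie close to 0.

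Changes were small. The median fold change over all genes was 0.01 on the log2 scale, with quartiles of -0.13 and 0.12, and the median absolute fold change of the 91 called genes was 0.88, with 28 at 1 or more. In 78 of the 91 the 4 values of one group lay wholly outside those of the other (43 higher, 35 lower), against 556 of all genes tested (4.10%, with 2.08% higher and 2.02% lower). The calls were made on these same values, so this separation is no separate support for them. Genes named for the 10 largest changes in each direction, Scd1 and Adh1 among them, had to be without overlap. Their separation was therefore fixed by that choice. The median standard error of a fold change was 0.17 here, and 0.27 in each comparison that involves the KPC libraries.

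The number of calls depended strongly on single libraries. Leaving out KPC_UA replicate 1 gave 362 DESeq2 calls, leaving out Sham replicate 1 or 4 gave 145 and 175, and leaving out KPC_UA replicate 2 gave 109. Leaving out Sham replicate 2 or 3, or KPC_UA replicate 3 or 4, gave 27, 30, 45 and 37. Of the 91 genes, 87 were still called without KPC_UA replicate 1, 73 without Sham replicate 1 and 26 without Sham replicate 2. A group of 16 genes was called in all 8 of these fits, namely mt-Tf, Csf2rb, Map3k6, Grrp1, Adh1, Acss1, Agfg2, Ier5, Ly6c1, Ly6a and Pkp4, which rose, and Scd1, Fgf6, Apold1, Mdga1 and Gas1, which fell.

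**Figure D2:**
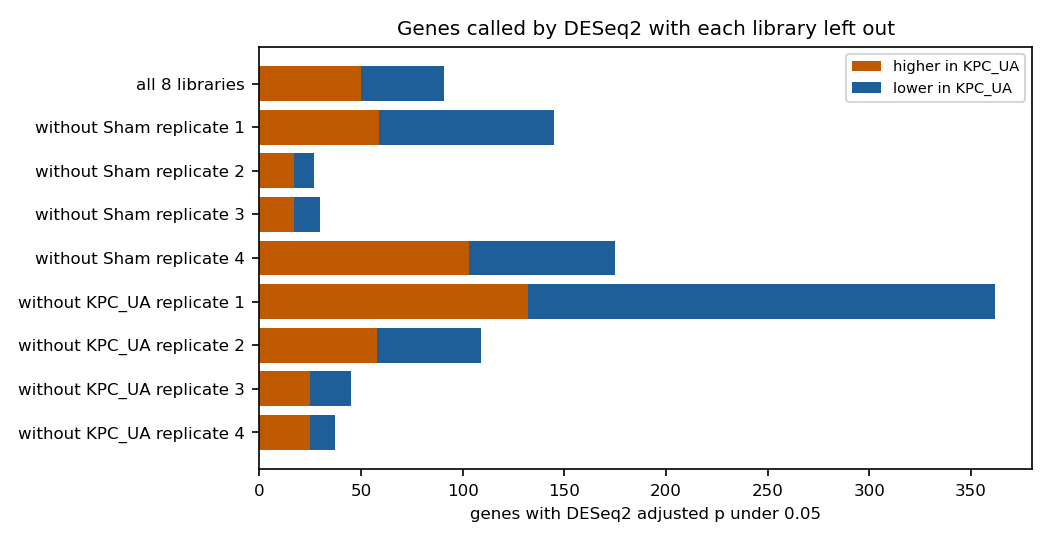
Number of genes with a DESeq2 adjusted p under 0.05 in KPC_UA against Sham, with all 8 libraries and with each library left out, split into genes higher (orange) and lower (blue) in KPC_UA. The count runs from 27 without Sham replicate 2 to 362 without KPC_UA replicate 1, around 91 with all libraries.

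The 5 lower genes called in every fit were Scd1, Mdga1, Gas1, Fgf6 and Apold1. Scd1 (chromosome 19, 44394455 to 44407879, GRCm38), the desaturase that makes monounsaturated fatty acids, stood at 552, 837, 408 and 600.3 in Sham replicates 1 to 4 and at 283, 149, 189 and 181 in KPC_UA. Every KPC_UA library lay below every Sham library, and Scd1 fell with a log2 fold change of -1.57 (SE 0.23), a DESeq2 adjusted p of 8.35e-07 and a limma adjusted p of 0.0966. Untreated KPC muscle gave -2.50 (SE 0.34) for Scd1 against Sham (DESeq2 adjusted p = 2.52e-08). KPC_UA against KPC gave 0.92 (SE 0.33), which DESeq2 did not call (adjusted p = 0.204). Mdga1 (chromosome 17, 29827949 to 29970087), a membrane-anchored surface protein best known from synapses, had values of 805, 1079, 1010.0 and 827 in Sham and 579, 517, 475 and 437 in KPC_UA. The groups did not overlap, the KPC_UA values lay close together, and the log2 fold change was -0.88 (SE 0.13) with a DESeq2 adjusted p of 9.20e-06. Gas1 (chromosome 13, 60174405 to 60177365), a surface co-receptor of hedgehog signalling, read 422, 473, 437 and 439 in Sham and 246, 284, 206 and 273 in KPC_UA. Its Sham values were almost equal, and it fell by 0.82 on the log2 scale (SE 0.12, DESeq2 adjusted p = 1.11e-05).

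Fgf6 (chromosome 6, 127015586 to 127028187) encodes a fibroblast growth factor made in muscle. Its values were 218, 341, 333 and 164 in Sham and 150.2, 93.5, 84.2 and 101 in KPC_UA, with the lowest Sham value just above the highest KPC_UA value. Fgf6 fell with a log2 fold change of -1.26 (SE 0.25) and a DESeq2 adjusted p of 0.00104. In KPC against Sham its log2 fold change was -1.80 (SE 0.37), with a DESeq2 adjusted p of 1.63e-04. Apold1 (chromosome 6, 134981718 to 134986836), an early response gene of endothelial cells, was at 99.9, 74.3, 75.8 and 130.0 in Sham and at 34.6, 41.5, 38.0 and 38.3 in KPC_UA. The 4 KPC_UA libraries were nearly identical, well below the lowest Sham library, and the log2 fold change was -1.26 (SE 0.21) with a DESeq2 adjusted p of 2.99e-04. Untreated KPC muscle had the opposite sign for Apold1, with a log2 fold change of 0.58 (SE 0.47) against Sham that DESeq2 did not call (adjusted p = 0.236), and KPC_UA against KPC gave -1.84 (SE 0.46) with a DESeq2 adjusted p of 0.00396. In that comparison DESeq2 called 100 of 13522 genes (0.740%) and limma none (0%), with 1714 (12.7%) at an unadjusted limma p under 0.05.

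Of the 11 higher genes called in every fit, Adh1 and Acss1 encode metabolic enzymes. Adh1 (chromosome 3, 138260991 to 138290698), the alcohol dehydrogenase that also oxidises retinol, had values of 347, 367, 295 and 483 in Sham and 651, 854, 767 and 705 in KPC_UA. All KPC_UA values exceeded all Sham values, and Adh1 rose with a log2 fold change of 1.01 (SE 0.15), a DESeq2 adjusted p of 1.11e-05 and a limma adjusted p of 0.0966. The log2 fold change of Adh1 was 0.43 (SE 0.23) in KPC against Sham, and 0.58 (SE 0.21) in KPC_UA against KPC, neither of which DESeq2 called (adjusted p = 0.242 and 0.209). Acss1 (chromosome 2, 150618105 to 150668500), the mitochondrial enzyme that turns acetate into acetyl-CoA, went from 325, 334, 258 and 449.7 in Sham to 670.0, 617, 783 and 561 in KPC_UA. Its groups were apart, and the log2 fold change was 0.96 (SE 0.17) with a DESeq2 adjusted p of 3.63e-04.

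Map3k6, Csf2rb and Ier5 are further members of those 11. Map3k6 (chromosome 4, 133240818 to 133252929), a stress-activated kinase, was at 148, 133, 125 and 249.6 in Sham and 327, 292, 494 and 415 in KPC_UA. Sham replicate 4 was the highest of its group but stayed below all KPC_UA libraries, and Map3k6 rose by 1.25 (SE 0.23) on the log2 scale (DESeq2 adjusted p = 7.75e-04). Csf2rb (chromosome 15, 78325752 to 78353847), the signalling subunit shared by the receptors of GM-CSF, interleukin-3 and interleukin-5, had low values of 19.1, 39.3, 44.6 and 21.7 in Sham and 63.2, 79.1, 131 and 78.6 in KPC_UA. The groups did not overlap, and the log2 fold change was 1.50 (SE 0.31) with a DESeq2 adjusted p of 0.00374, a value made uncertain by its near-identical neighbour Csf2rb2. KPC against Sham gave 1.95 (SE 0.34) for Csf2rb and 2.38 (SE 0.70) for Map3k6 (DESeq2 adjusted p = 1.43e-05 and 0.00708). For Map3k6, KPC replicate 1 stood at 4329, against 273 to 575 in the other KPC libraries. Ier5 (chromosome 1, 155096361 to 155099636), an immediate early response gene, had values of 253, 176, 196 and 177 in Sham and 433, 369, 328 and 354 in KPC_UA. It rose by 0.89 (SE 0.15) on the log2 scale (DESeq2 adjusted p = 1.79e-04) with the groups apart.

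Pkp4 (chromosome 2, 59160850 to 59355208), a plakophilin of cell junctions, measured 373, 333, 347 and 479.6 in Sham and 559, 662, 755 and 674 in KPC_UA. Again no library of one group lay within the other, at a log2 fold change of 0.80 (SE 0.14) and a DESeq2 adjusted p of 6.50e-04. Ly6a, the surface protein Sca-1 of fibro-adipogenic progenitors and endothelium, and its relative Ly6c1 rose by 0.81 (SE 0.15) and 0.84 (SE 0.15) on the log2 scale (DESeq2 adjusted p = 0.00315 and 2.99e-04). Both lie in a cluster of closely related genes on chromosome 15, so the split of reads among them is uncertain. Agfg2, Grrp1 and the mitochondrial phenylalanine tRNA gene mt-Tf rose by 0.91 (SE 0.17), 1.17 (SE 0.23) and 1.51 (SE 0.32) on the log2 scale (DESeq2 adjusted p = 0.00257, 0.00143 and 0.00374). In KPC against Sham the log2 fold changes of Ly6a, Grrp1 and mt-Tf were 0.50 (SE 0.28), 1.002 (SE 0.42) and 2.42 (SE 0.34) (DESeq2 adjusted p = 0.213, 0.0518 and 3.80e-08). The gene mt-Tf spans bases 1 to 68 of the mitochondrial genome.

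**Figure D3:**
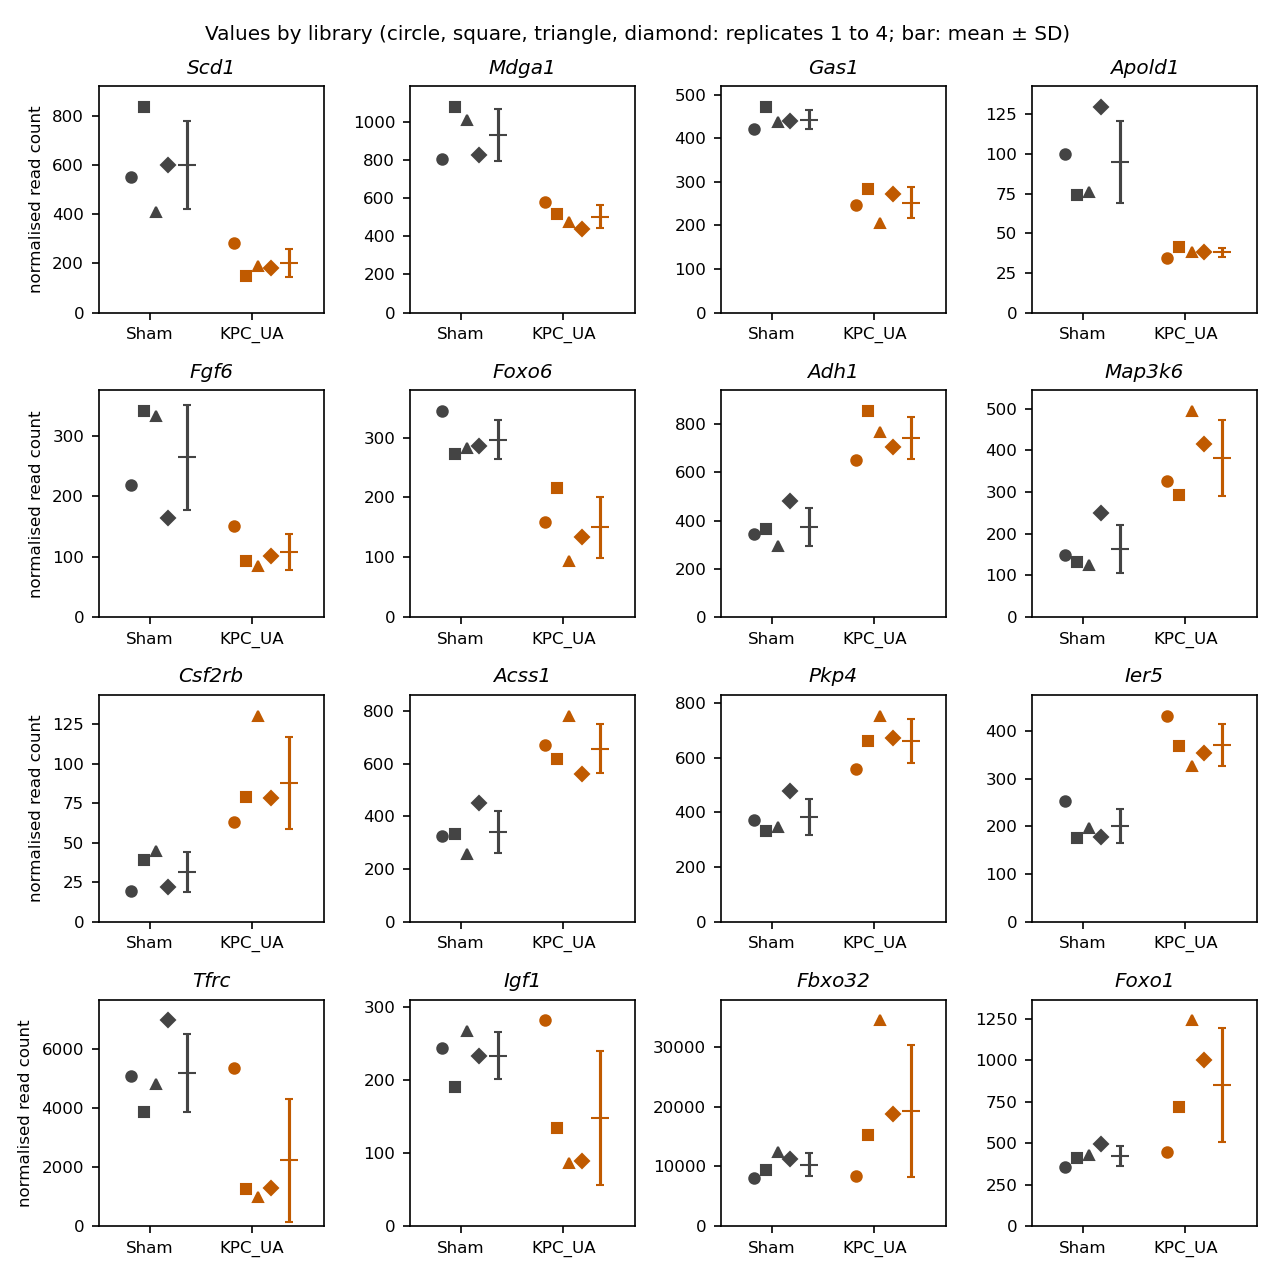
Normalised read counts of 16 genes in each Sham (grey) and KPC_UA (orange) library, with symbols for replicates 1 to 4 and bars for mean ± SD (n = 4). The upper 12 genes do not overlap between groups, while in Tfrc, Fbxo32 and Foxo1 KPC_UA replicate 1 lies among the Sham libraries, and in Igf1 just above them.

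The cytokine receptor genes Il6ra, Osmr and Il4ra rose, although each call was lost without at least 1 library. Il6ra (chromosome 3, 89864059 to 89913196), the receptor that binds interleukin-6, read 84.0, 89.1, 71.3 and 100.1 in Sham and 116, 129, 474 and 206 in KPC_UA. The groups did not overlap, but KPC_UA replicate 3 was far above the rest. The log2 fold change was 1.18 (SE 0.36) and the DESeq2 adjusted p 0.0260, and the call was lost without Sham replicates 1, 2, 3 and 4 or KPC_UA replicates 3 and 4 (adjusted p = 0.296, 0.529, 0.157, 0.244, 0.162 and 0.0720, respectively). Osmr (chromosome 15, 6813577 to 6874969), the oncostatin M receptor, was at 106, 179, 120.4 and 170.2 in Sham and 195, 241, 444 and 307 in KPC_UA. It rose by 1.004 (SE 0.25) on the log2 scale (DESeq2 adjusted p = 0.0185), with its KPC_UA values all above Sham, and was not called without Sham replicate 3 or KPC_UA replicates 3 and 4 (adjusted p = 0.154, 0.143 and 0.107, respectively). Il4ra (chromosome 7, 125552120 to 125579474), which binds interleukin-4 and interleukin-13, rose from 132 ± 19.8 to 247 ± 70.9 (SD, n = 4; log2 fold change 0.87, DESeq2 adjusted p = 0.00953). Its call went without Sham replicate 2 or KPC_UA replicate 3 (adjusted p = 0.0692 and 0.0700, respectively). The list of interleukin-6 family, STAT3 and acute phase genes also holds Il4ra, a receptor of interleukin-4 and interleukin-13. Of its 15 tested genes these 3 rose and none fell (0.369% and 0.302% of all genes), and 4 of the 15 had negative fold changes. The list's median was 0.16 on the log2 scale against 0.01 over all genes, and ran from 0.11 without Sham replicate 1 to 0.26 without Sham replicate 3. Stat3 and Socs3, which act downstream of receptors of the interleukin-6 family, had log2 fold changes of 0.26 (SE 0.12) and 0.33 (SE 0.21), not called by DESeq2 (adjusted p = 0.566 and 0.869).

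Untreated KPC muscle showed a log2 fold change of 3.79 (SE 0.74) for Il6ra, 1.25 (SE 0.23) for Osmr and 1.40 (SE 0.24) for Il4ra against the same Sham libraries. Il6ra stood at 5935, 283, 636 and 1564 in KPC replicates 1 to 4, so replicate 1 was far above the rest. Set directly against KPC, the treated muscle gave -2.61 (SE 0.82) for Il6ra, -0.25 (SE 0.26) for Osmr and -0.53 (SE 0.26) for Il4ra, with DESeq2 adjusted p of 0.0656, 0.736 and 0.316.

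Under the rule for the 10 largest changes in each direction, the other higher genes were Rab27a, Cpne8 and H19. H19 (chromosome 7, 142575529 to 142578143), an imprinted long non-coding RNA that also holds the microRNA gene Mir675, was abundant at 10081, 5017, 5286 and 9598 in Sham and 14421, 14752, 15475 and 12337 in KPC_UA. Sham replicates 2 and 3 were low, and all KPC_UA libraries exceeded the highest Sham library. H19 rose by 0.996 (SE 0.22) on the log2 scale (DESeq2 adjusted p = 0.0109), and the call went without Sham replicates 2 and 3 or KPC_UA replicate 3 (adjusted p = 0.0811, 0.110 and 0.0696, respectively). Rab27a, a small GTPase of vesicle secretion, and Cpne8, a calcium-binding membrane protein, rose by 1.12 (SE 0.26) and 1.001 (SE 0.21) on the log2 scale (DESeq2 adjusted p = 0.0199 and 0.00949). Rab27a was called in 3 and Cpne8 in 5 of the 8 fits with a library left out. Rab27a was lost without Sham replicates 1, 2 and 3 or KPC_UA replicates 3 and 4 (adjusted p = 0.0645, 0.133, 0.161, 0.166 and 0.0679, respectively). Cpne8 was lost without Sham replicates 2 and 3 or KPC_UA replicate 3 (adjusted p = 0.0839, 0.114 and 0.121, respectively).

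Among the lower genes of that rule, Foxo6 (chromosome 4, 120267079 to 120287349), a forkhead factor of the same family as Foxo1, had values of 344, 273, 283 and 286 in Sham and 159, 215, 93.5 and 134 in KPC_UA. All KPC_UA libraries lay below Sham, with replicate 3 lowest. Foxo6 fell with a log2 fold change of -1.03 (SE 0.21) and a DESeq2 adjusted p of 0.00663, and the call was lost without KPC_UA replicate 4 (adjusted p = 0.0664). Ighm, the immunoglobulin M heavy chain made by B cells, fell from 759 ± 285 to 356 ± 69.2 (SD, n = 4; log2 fold change -1.03, DESeq2 adjusted p = 0.00663). The Ighm call was lost without Sham replicates 2 and 3 or KPC_UA replicate 4 (adjusted p = 0.0839, 0.106 and 0.0664, respectively). In KPC against Sham the log2 fold changes of Foxo6 and Ighm were -3.61 (SE 0.66) and -2.45 (SE 0.42) (DESeq2 adjusted p = 5.27e-05 and 1.43e-05).

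The remaining 5 lower genes of the rule were Gadl1, a decarboxylase of the carnosine pathway, Auts2, a transcriptional regulator, Chst15, a chondroitin sulfotransferase, Grip2, a scaffold of synapses, and Col9a1, a chain of type IX collagen. They fell by 1.02, 1.01, 0.97, 0.95 and 0.92 on the log2 scale, with DESeq2 adjusted p of 0.0256, 0.00733, 0.00489, 0.0376 and 0.0260. Chst15 was the steadiest, at 131, 135, 124 and 119.7 in Sham and 68.2, 89.7, 58.3 and 48.4 in KPC_UA, and its call was lost without Sham replicate 2 or KPC_UA replicate 4 (adjusted p = 0.0744 and 0.0572, respectively). Auts2 was not called without Sham replicates 2 and 3 or KPC_UA replicate 4 (adjusted p = 0.0881, 0.0959 and 0.0718, respectively). Gadl1 and Grip2 were each called in 3 fits, and the calls failed without Sham replicates 2 and 3 or KPC_UA replicates 2, 3 and 4 (adjusted p = 0.254, 0.264, 0.0645, 0.0974 and 0.110, respectively) for Gadl1 and without Sham replicates 2 and 3 or KPC_UA replicates 2, 3 and 4 (adjusted p = 0.328, 0.114, 0.0617, 0.162 and 0.218, respectively) for Grip2. For Col9a1 the call failed without Sham replicates 2 and 3 or KPC_UA replicates 3 and 4 (adjusted p = 0.307, 0.253, 0.0993 and 0.123, respectively).

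The degradation programme of wasting muscle was not called as a whole. Among 22 tested ubiquitin ligases and FOXO factors of atrophy, Foxo1 rose and Foxo6 fell by DESeq2 (0.369% and 0.302% of all genes), and the other 20 were not called. The median was 0.07 on the log2 scale against 0.01 over all genes. Fbxo32 had values of 8095, 9450.3, 12416 and 11201 in Sham and 8409, 15219, 34529 and 18795 in KPC_UA. KPC_UA replicate 1 lay among the Sham libraries and replicate 3 far above all others, so the groups overlapped. Its log2 fold change was 0.74 (SE 0.34), with adjusted p of 0.635 by limma and 0.537 by DESeq2. Trim63 read 5571, 6831, 7342 and 6608 in Sham and 5789, 8328, 18464 and 9391 in KPC_UA, with the same 2 KPC_UA libraries at the ends of the range. The log2 fold change of Trim63 was 0.54 (SE 0.28), with a DESeq2 adjusted p of 0.367. Without KPC_UA replicate 1 DESeq2 called both, at adjusted p of 0.00131 for Fbxo32 and 0.0229 for Trim63. In that fit, which called 362 of 13567 genes, 5 genes of the list rose and 2 fell.

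Foxo1 (chromosome 3, 52268336 to 52353221), which drives these ligases, was at 353, 407, 426 and 497 in Sham and 449, 715, 1241 and 999 in KPC_UA. KPC_UA replicate 1 was again within the Sham range. Foxo1 rose by 0.93 (SE 0.26) on the log2 scale (DESeq2 adjusted p = 0.0193), but not without Sham replicates 2 and 3 or KPC_UA replicates 3 and 4 (adjusted p = 0.115, 0.110, 0.158 and 0.146, respectively). Fbxl22, an F-box protein of the sarcomere, had a log2 fold change of -0.85 (SE 0.25) with a DESeq2 adjusted p of 0.120 (0.0187 without KPC_UA replicate 1). None of 31 proteasome subunits was called, their log2 fold changes lay between -0.04 and 0.24, and their median was 0.09. In untreated KPC muscle the median of these subunits was 0.74 against Sham. None of 26 autophagy and lysosome genes was called either, with a median of 0.10 here and 0.36 in KPC against Sham. Without KPC_UA replicate 1 DESeq2 called 2 of them higher, Map1lc3b and Gabarapl1, which encode proteins of the autophagosome membrane (adjusted p = 0.0263 and 0.00107, against 0.501 and 0.0504 with all libraries). That fit called 362 of 13567 genes.

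Stress and growth genes gave a mixed picture. Ddit4, an inhibitor of mTORC1, had a log2 fold change of 0.15 (SE 0.23) in KPC_UA against Sham, 3.63 (SE 0.54) in KPC against Sham and -3.50 (SE 0.53) in KPC_UA against KPC, where DESeq2 gave an adjusted p of 1.20e-09. Its values of 472, 710.3, 480.5 and 950.0 in Sham and 476, 741, 781 and 831 in KPC_UA overlapped throughout. In KPC replicates 1 to 4 Ddit4 stood at 22818, 2694, 6344 and 7741, with replicate 1 far above the rest. Cdkn1a, the cell cycle inhibitor p21, had values of 266, 222, 124 and 257 in Sham and 297, 311, 423 and 405 in KPC_UA. These did not overlap, but the log2 fold change of 0.77 (SE 0.23) was not called by DESeq2 (adjusted p = 0.115; 0.0474 without KPC_UA replicate 1 and 0.0427 without Sham replicate 1). Pdk4, which restrains glucose oxidation, had a log2 fold change of 0.62 (SE 0.45), with KPC_UA replicate 3 at 30754 and the other KPC_UA libraries at 7419.6 to 12489.5 (DESeq2 adjusted p = 0.921). Mstn, the inhibitor of muscle growth myostatin, had 758 ± 217 in Sham and 762 ± 314 in KPC_UA (SD, n = 4; log2 fold change -0.04, SE 0.28), a value whose sign changed between tests and with single libraries. Smox, a polyamine oxidase, had a log2 fold change of -0.20 (SE 0.19) (DESeq2 adjusted p = 0.905; 0.0118 without Sham replicate 4).

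Igf1 and Tfrc split the KPC_UA libraries. Igf1 was at 245, 190.5, 268 and 233 in Sham and 283, 135, 86.1 and 89.7 in KPC_UA, so KPC_UA replicate 1 was the highest and the other 3 the lowest of the 8 libraries. Over all libraries the log2 fold change was -0.82 (SE 0.31) and the DESeq2 adjusted p 0.561, and without KPC_UA replicate 1 the adjusted p was 3.62e-05. Tfrc, the transferrin receptor that imports iron, read 5111, 3867, 4819 and 6998 in Sham and 5369, 1273, 997 and 1295 in KPC_UA. KPC_UA replicate 1 was within the Sham range and the other 3 well below it. The log2 fold change of Tfrc was -1.56 (SE 0.46) with a DESeq2 adjusted p of 0.594, and without that library the values were -2.11 and 4.83e-22. Leaving out the KPC_UA library that lies on the Sham side widens the difference by construction. The adjusted p-values of Igf1 and Tfrc without it therefore add no separate support.

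**Figure D4:**
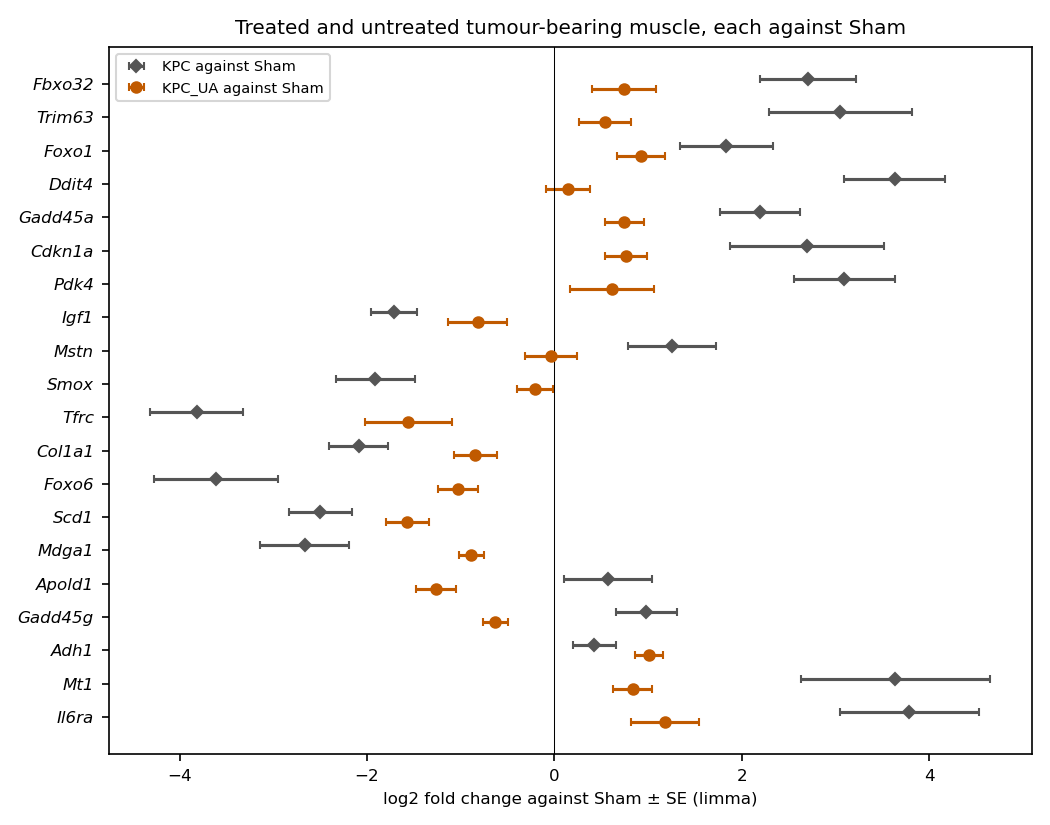
Log2 fold changes against Sham ± SE (limma, n = 4 per group) of 20 genes in treated (KPC_UA, orange circles) and untreated (KPC, grey diamonds) tumour-bearing muscle, which share the Sham libraries. Ddit4 lies at 0.15 in KPC_UA and 3.63 in KPC, and Apold1 and Gadd45g lie on opposite sides of 0. Replicate 1 was far above the other KPC libraries for Il6ra, Mt1 and Cdkn1a.

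Genes of the Gadd45 family, which respond to stress and growth arrest, moved in opposite directions. Gadd45a (chromosome 6, 67035096 to 67037457) was at 641, 594, 474 and 573 in Sham and 582, 1182, 1237 and 967 in KPC_UA. KPC_UA replicate 1 was inside the Sham range and the other 3 above it. Gadd45a rose with a log2 fold change of 0.75 (SE 0.21) and a DESeq2 adjusted p of 0.0385, and the call was lost without Sham replicates 2, 3 and 4 or KPC_UA replicates 2, 3 and 4 (adjusted p = 0.144, 0.256, 0.0643, 0.112, 0.234 and 0.136, respectively). Gadd45g (chromosome 13, 51846678 to 51848468) was at 1873, 1639.8, 1435 and 1699.8 in Sham and 909, 1258, 936 and 1217 in KPC_UA. All KPC_UA libraries, replicate 1 included, lay below Sham, and Gadd45g fell by 0.63 on the log2 scale (SE 0.13, DESeq2 adjusted p = 0.00953), except without Sham replicate 2 or KPC_UA replicate 3 (adjusted p = 0.0811 and 0.0842, respectively). In untreated KPC muscle the log2 fold change of Gadd45g was 0.98 (SE 0.33) against Sham, and KPC_UA against KPC gave -1.62 (SE 0.33) with a DESeq2 adjusted p of 0.00116. Of the 14 genes on the p53 and growth arrest list these were the called ones (0.369% higher and 0.302% lower of all genes), with a median of 0.18 that was 0.07 without Sham replicate 1 and 0.11 without KPC_UA replicate 3. Sesn1, a sestrin that restrains mTORC1, had a log2 fold change of 0.84 (SE 0.24) and missed the DESeq2 threshold at an adjusted p of 0.0504, but was called without Sham replicate 4 or KPC_UA replicates 1 and 2 (adjusted p = 0.0308, 0.00328 and 0.0138, respectively).

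The molecular clock of muscle is a feedback loop in which Nr1d1 (REV-ERB alpha), a nuclear receptor, represses genes through a DNA element that holds a receptor half-site, Bhlhe40 represses genes through E-boxes, and Nfil3 represses clock output genes. Both directions occurred among the 20 tested clock genes, with 2 higher and 2 lower by DESeq2 (0.369% and 0.302% of all genes). Their median of 0.11 was 0.02 without Sham replicate 1, 0.07 without KPC_UA replicate 3, and 0.20 without Sham replicate 4 or KPC_UA replicate 2. Promoters of the opposed pair Nr1d1 and Nfil3, and of Gadd45a and Gadd45g above, are printed so that their letters can be set beside these directions. Each is the 250 bases before the annotated start in RefSeq (GRCm38.p6), 5′ to 3′ on the gene's strand. Capitals mark a match, on either strand, to the E-box CACGTG, to the nuclear receptor half-site AGGTCA or to the CCAAT box CCAAT, motifs that do not overlap here. Among 32851 RefSeq promoters of the same length, 6.02% hold the E-box, 14% the half-site and 33.8% the CCAAT box, and a promoter sequence was present for 69 of the 91 called genes.
Nr1d1, chr11:98775378-98775627, minus strand: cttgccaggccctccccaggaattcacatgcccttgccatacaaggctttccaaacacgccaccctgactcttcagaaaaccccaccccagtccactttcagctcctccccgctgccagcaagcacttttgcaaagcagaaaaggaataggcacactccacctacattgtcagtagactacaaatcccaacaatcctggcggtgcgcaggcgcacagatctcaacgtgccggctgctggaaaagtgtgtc
Nfil3, chr13:52981040-52981289, minus strand: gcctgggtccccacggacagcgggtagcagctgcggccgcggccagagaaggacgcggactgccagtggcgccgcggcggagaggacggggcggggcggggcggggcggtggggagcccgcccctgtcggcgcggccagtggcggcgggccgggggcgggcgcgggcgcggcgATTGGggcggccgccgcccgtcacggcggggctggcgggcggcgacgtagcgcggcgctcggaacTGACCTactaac
Gadd45a, chr6:67037408-67037657, minus strand: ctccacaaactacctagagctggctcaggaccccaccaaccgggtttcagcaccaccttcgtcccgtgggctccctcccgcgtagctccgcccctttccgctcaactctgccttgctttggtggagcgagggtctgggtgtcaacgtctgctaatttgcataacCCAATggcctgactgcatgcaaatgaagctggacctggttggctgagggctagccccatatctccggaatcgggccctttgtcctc
Gadd45g, chr13:51846425-51846674, plus strand: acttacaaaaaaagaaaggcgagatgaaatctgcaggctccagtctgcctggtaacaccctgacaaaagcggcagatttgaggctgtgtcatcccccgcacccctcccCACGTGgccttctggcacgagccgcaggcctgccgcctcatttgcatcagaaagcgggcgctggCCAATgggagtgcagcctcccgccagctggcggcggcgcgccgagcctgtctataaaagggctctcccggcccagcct

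In these windows Nfil3 holds the half-site at -12 and a CCAAT box at -77, Gadd45a a CCAAT box at -86, Gadd45g an E-box at -142 and a CCAAT box at -78, and Nr1d1 none of these letters, with positions counted from the start site to the match's first base. Positions follow the RefSeq start, which differs from the GENCODE coordinates given for the genes. The Nfil3 window begins at 52981040, inside the GENCODE gene that ends at 52981073, and its half-site lies within that gene. The Gadd45a window begins at 67037408, inside the GENCODE gene that ends at 67037457, while its CCAAT box lies outside. A match describes the letters only. Nr1d1 (chromosome 11, 98767932 to 98775333) was at 4362, 5077, 5074 and 4119.7 in Sham and 3306, 3389.7, 2181 and 2787 in KPC_UA. The groups did not overlap, and the log2 fold change was -0.69 (SE 0.15) with a DESeq2 adjusted p of 0.00721. The gene overlaps Thra on the other strand, so some of its reads may belong to Thra if strand was not used in counting. The Nr1d1 call was lost without Sham replicates 2 and 3 or KPC_UA replicate 4 (adjusted p = 0.0881, 0.106 and 0.0718, respectively). Nfil3 (chromosome 13, 52967209 to 52981073) was at 523, 400.1, 344 and 417 in Sham and 524, 739.6, 701 and 766 in KPC_UA, with KPC_UA replicate 1 barely above Sham replicate 1. It rose by 0.70 (SE 0.15) on the log2 scale (DESeq2 adjusted p = 0.0126), though not without Sham replicates 2 and 3 or KPC_UA replicates 3 and 4 (adjusted p = 0.118, 0.143, 0.0780 and 0.135, respectively).

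Bhlhe40 (chromosome 6, 108660629 to 108666925) was at 2948, 4438, 4648 and 3173 in Sham and at 2219, 2311, 2561 and 2591 in KPC_UA, where the libraries agreed closely. It fell by 0.63 on the log2 scale (SE 0.15, DESeq2 adjusted p = 0.0186), a call lost without Sham replicates 2 and 3 or KPC_UA replicates 3 and 4 (adjusted p = 0.216, 0.191, 0.0516 and 0.0705, respectively). The clock activator Arntl, the clock repressor Per2 and the output gene Dbp were not called over all libraries, with log2 fold changes of -0.40 (SE 0.16), 0.89 (SE 0.28) and -0.13 (SE 0.18). Per2 was called without Sham replicate 4 or KPC_UA replicate 2 (adjusted p = 3.27e-04 and 0.0216, respectively). The hour at which muscles were taken is not in the labels, so clock genes and time of dissection cannot be told apart.

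Of 17 tested targets of glucocorticoids, Mt1 and Sult1a1 rose and Sgk1 fell by DESeq2 (0.369% and 0.302% of all genes). The fold change was positive for 12, and 7 were higher and 1 lower at an unadjusted limma p under 0.05 (3.53% and 4.41% of all genes). The list's median was 0.48, against 0.01 over all genes and 1.41 in KPC against Sham, and 0.27 without KPC_UA replicate 3. Mt1, a metallothionein that binds zinc and copper, was at 179, 114, 92.5 and 137 in Sham and 184, 293, 245 and 203 in KPC_UA. The lowest KPC_UA value was only just above the highest Sham value, and the log2 fold change was 0.84 (SE 0.21) with a DESeq2 adjusted p of 0.0437, lost without Sham replicates 2, 3 and 4 or KPC_UA replicates 2, 3 and 4 (adjusted p = 0.282, 0.262, 0.0618, 0.160, 0.192 and 0.0997, respectively). KPC against Sham gave 3.64 (SE 1.01) for Mt1, whose KPC values ran from 240 to 12947 (DESeq2 adjusted p = 2.44e-04). Sult1a1, a sulfotransferase, rose from 307 ± 45.5 to 448 ± 49.5 (SD, n = 4; DESeq2 adjusted p = 0.0437), but not without Sham replicates 2 and 3 or KPC_UA replicates 2, 3 and 4 (adjusted p = 0.319, 0.262, 0.163, 0.143 and 0.135, respectively). Sgk1, a kinase that glucocorticoids induce in many cells, fell from 7449.9 ± 968 to 5226 ± 667 (SD, n = 4; log2 fold change -0.51, DESeq2 adjusted p = 0.0385). Its call was lost without Sham replicates 2, 3 and 4 or KPC_UA replicates 1, 2 and 4 (adjusted p = 0.216, 0.289, 0.109, 0.0664, 0.110 and 0.135, respectively). Without KPC_UA replicate 1 the called members were 6 higher, Fkbp5, Klf15, Cebpb, Mt1, Glul and Sult1a1, and none lower, in a fit that called 362 of 13567 genes.

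The summed collagen value was lower in 3 of the 4 KPC_UA libraries, with no gene called over all 8. Over the 32 listed collagens and collagen-processing genes the sum was 31436, 31908, 28465 and 34666 in Sham replicates 1 to 4 and 31971, 24179.8, 19626 and 19779 in KPC_UA. KPC_UA replicate 1 was at the Sham level and the other 3 were below every Sham library. Of 32 tested, 18 were lower and 0 higher at an unadjusted limma p under 0.05 (4.41% and 3.53% of all genes), none was called by DESeq2, and the median was -0.50 on the log2 scale. Col1a1 and Col1a2, the chains of type I collagen, had log2 fold changes of -0.84 (SE 0.23) and -0.83 (SE 0.21) with DESeq2 adjusted p of 0.0852 and 0.0511. Col1a1 was at 2468, 3197, 2361 and 3444 in Sham and 2531, 1718, 1110.0 and 1283 in KPC_UA, overlapping through replicate 1. Loxl2, a collagen cross-linking enzyme, had a log2 fold change of -0.92 (SE 0.23) (DESeq2 adjusted p = 0.0574). Without KPC_UA replicate 1, in a fit that called 362 of 13567 genes, 14 of the list were called lower. The adjusted p there was 3.54e-05 for Col1a1, 1.53e-05 for Col1a2 and 9.43e-06 for Loxl2. Without Sham replicate 1, in a fit that called 145 genes, there were 4, Col1a1 and Col1a2 among them (adjusted p = 0.0470 and 0.0381).

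Markers of tendon and of fibro-adipogenic progenitors mostly had negative fold changes, with 1 lower and 1 higher call among them, and in bulk RNA fewer cells of a type and less RNA per cell cannot be told apart. Tendon markers summed to 3432, 3561, 3215 and 4270.3 in Sham and 3512, 2265, 799.9 and 2152 in KPC_UA. Replicate 1 of KPC_UA was again within the Sham range, replicate 3 lowest. All 9 tested tendon markers had negative fold changes, with a median of -1.36 that was -0.75 without KPC_UA replicate 3. At an unadjusted limma p under 0.05, 5 were lower and 0 higher (4.41% and 3.53% of all genes). None was called by DESeq2 over all libraries, and Tnmd, Cilp2 and Fmod had log2 fold changes of -1.72 (SE 0.49), -1.43 (SE 0.48) and -1.51 (SE 0.50) (DESeq2 adjusted p = 0.0601, 0.169 and 0.351). Tnmd, a membrane protein of tendon cells, was called without Sham replicate 1 or KPC_UA replicates 1 and 2 (adjusted p = 0.0250, 0.0164 and 0.00519, respectively). Thbs4 was called without KPC_UA replicate 1, Cilp2 without KPC_UA replicate 2 and Fmod without KPC_UA replicate 3 (adjusted p = 0.0490, 0.0337 and 0.0242). How much tendon each dissected muscle carried, and its part in the collagen values, was not tested. Of 14 markers of fibro-adipogenic progenitors, the interstitial fibroblasts of muscle, Smoc2 fell and Ly6a rose (0.302% and 0.369% of all genes), and the median was -0.40. The fold change was negative for 13 of the 14. At an unadjusted limma p under 0.05, 7 were lower and 1 higher (4.41% and 3.53% of all genes). Smoc2, a matrix protein, went from 1409 ± 255 to 963 ± 76.6 (SD, n = 4; DESeq2 adjusted p = 0.0437), a call lost without Sham replicates 1, 2 and 4 or KPC_UA replicates 2, 3 and 4 (adjusted p = 0.106, 0.281, 0.0986, 0.0755, 0.223 and 0.270, respectively). Hsd11b1, which activates glucocorticoids, had a log2 fold change of -0.62 (SE 0.17) (DESeq2 adjusted p = 0.0852).

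Of 10 tested adipocyte markers 0 were called over all libraries, and 5 were lower and 1 higher at an unadjusted limma p under 0.05 (4.41% and 3.53% of all genes). The median was -0.58, but -0.33 without KPC_UA replicate 3 and -0.10 over the members with a mean of at least 50, with Cidec at -0.95 (SE 0.33) and Plin1 at -1.13 (SE 0.42) on the log2 scale (DESeq2 adjusted p = 0.271 and 0.199). Adipoq, the hormone adiponectin, was called lower without KPC_UA replicate 1 (adjusted p = 0.0118, against 0.381 with all libraries). Plin4, a lipid droplet protein that muscle fibres also make, went the other way, with 3216, 3309, 3054 and 5945 in Sham and 6725, 5539, 13907 and 9552 in KPC_UA. Sham replicate 4 alone overlapped the KPC_UA range, and the log2 fold change was 1.17 (SE 0.28) with a DESeq2 adjusted p of 0.137 (0.00154 without KPC_UA replicate 1 and 1.65e-05 without Sham replicate 4). On the list of 28 lipid and sterol synthesis genes Scd1, which fell, was the called member (0.302% of all genes fell). At an unadjusted limma p under 0.05, 9 were lower and 1 higher (4.41% and 3.53% of all genes), and the median was -0.21. Without KPC_UA replicate 1, in a fit that called 362 of 13567 genes, Scd2, Elovl6 and Fads1 were among the list genes called lower. On the other side was 1 gene, Fdft1.

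Markers of blood and immune cells were uneven, and those of neutrophils were low. Of 10 neutrophil markers 2 passed the filter on low values, so the list is described only by them. Both had Sham means under the filter of 10 (4.79 for S100a9 and 7.50 for Csf3r) and passed through their KPC_UA values, so a higher direction was in part fixed by the filter. S100a9, a calcium-binding protein of neutrophils, read 6.38, 5.24, 4.46 and 3.09 in Sham and 13.8, 13.5, 31.5 and 30.2 in KPC_UA. The groups did not overlap, and the log2 fold change was 1.93 (SE 0.40) with a DESeq2 adjusted p of 0.0107, lost without Sham replicates 2 and 3 (adjusted p = 0.0811 and 0.0773, respectively), while DESeq2 gave no adjusted p without Sham replicate 1 or KPC_UA replicates 2, 3 and 4. Csf3r, the G-CSF receptor, had values of 12.8, 9.61, 5.57 and 2.06 in Sham and 16.8, 16.4, 25.9 and 28.2 in KPC_UA (log2 fold change 1.59, DESeq2 adjusted p = 0.121). These values rest on few reads. In untreated KPC muscle S100a9 and Csf3r had log2 fold changes of 2.74 (SE 0.56) and 1.19 (SE 0.69) against Sham.

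Erythroid markers summed to 6349.8, 3463, 3737 and 5840.1 in Sham and 4689, 19744, 5408 and 8846 in KPC_UA, so KPC_UA replicate 2 stood highest and the groups overlapped. None of 8 tested was called, the median was 1.58 (1.01 without KPC_UA replicate 2), and Hbb-bt and Alas2 had log2 fold changes of 1.76 (SE 0.72) and 1.58 (SE 0.67) (DESeq2 adjusted p = 0.558 and 0.442). The fold change was positive for 7 of the 8 erythroid markers. At an unadjusted limma p under 0.05, 4 were higher and 0 lower (3.53% and 4.41% of all genes). Of 12 T and B cell markers 2 passed the filter, Ighm above and Cd3e, whose log2 fold change was -0.44 (SE 0.29) (DESeq2 adjusted p = 0.957). Genes of MHC class II, which presents antigen, had a median of 0.43 over 7 tested with 0 called, which was 0.16 without Sham replicate 3 and 0.26 without Sham replicate 2, and H2-Ab1, H2-Eb1 and H2-Aa had log2 fold changes of 0.54 (SE 0.23), 0.45 (SE 0.28) and 0.39 (SE 0.28). Macrophage markers, 14 tested, had a median of 0.24 (0.09 without Sham replicate 1 and 0.15 without KPC_UA replicate 4) and 0 calls. Endothelial markers, 17 tested, had a median of 0.04 with Ly6c1 called higher (0.369% of all genes).

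**Figure D5:**
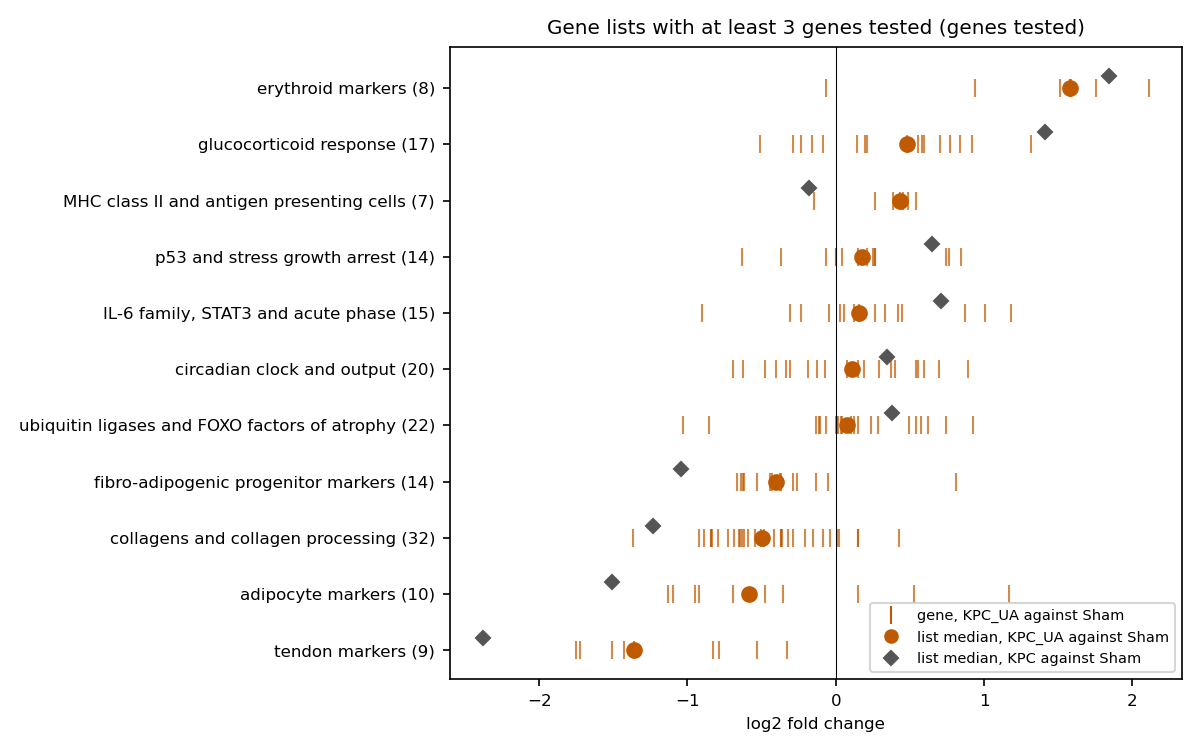
Log2 fold changes of KPC_UA against Sham (limma) for the genes of the 11 lists described that had at least 3 genes tested (orange ticks) with the list median (orange circle), and the list median of KPC against Sham (grey diamond), with the number of genes tested in brackets. The medians run from -1.36 for tendon to 1.58 for erythroid markers, and the comparisons share the Sham libraries.

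Over the lists of contractile, ribosomal and energy genes the medians were 0.04 for 8 fibre markers, 0.05 for 23 sarcomere and Z-disc genes, 0.09 for 51 ribosomal proteins and 0.01 for 27 glycolysis and glycogen genes, against 0.01 over all genes. Fold changes were positive for 4, 16, 48 and 15 of them, respectively, against 52.1% of all genes. The ribosomal median ran from -0.01 without KPC_UA replicate 2 to 0.19 without Sham replicate 1. Of 47 nuclear subunits of oxidative phosphorylation 44 had positive fold changes, and their median was 0.11 and ran from -0.03 without KPC_UA replicate 2 to 0.22 without KPC_UA replicate 3. Fatty acid oxidation enzymes had positive fold changes in 21 of 22 (52.1% of all genes), with a median of 0.25 that was 0.12 without Sham replicate 2 and 0.16 without KPC_UA replicate 2. In all of these lists together DESeq2 called 1 gene, against 0.671% of all genes. It was Ppp1r3c (chromosome 19, 36731731 to 36736653), a glycogen-targeting subunit of protein phosphatase, named after its value was seen. It was at 7587, 7943, 6207 and 6339 in Sham and 8079, 12212, 16144 and 16483 in KPC_UA, with KPC_UA replicate 1 only just above Sham. Ppp1r3c rose by 0.87 (SE 0.20) on the log2 scale (DESeq2 adjusted p = 0.00625), but not without Sham replicate 3 or KPC_UA replicate 4 (adjusted p = 0.0773 and 0.0713, respectively).

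Fasting targets of PPAR receptors and slow fibre genes held 1 call each (0.671% of all genes were called), both named after their values were seen. Of 19 tested PPAR targets 7 were higher and 0 lower at an unadjusted limma p under 0.05 (3.53% and 4.41% of all genes). The median was 0.28, against 1.17 in KPC against Sham. Ucp2, an uncoupling protein of mitochondria, was at 161, 114, 111 and 162 in Sham and 193, 257, 239.8 and 214 in KPC_UA. The groups were apart, and Ucp2 rose by 0.73 (SE 0.17) on the log2 scale (DESeq2 adjusted p = 0.0194), a call lost without Sham replicates 2 and 3 or KPC_UA replicates 2, 3 and 4 (adjusted p = 0.220, 0.190, 0.0976, 0.141 and 0.0980, respectively). Of 10 slow fibre genes 5 had positive and 5 negative fold changes, and the sign of their median of 0.12 changed without Sham replicate 2 (-0.24). Myl2, the regulatory light chain of slow myosin, was at 38.3, 22.7, 105 and 50.5 in Sham and 16.8, 14.5, 13.9 and 13.1 in KPC_UA. Its KPC_UA values were low and close together, Sham replicate 3 was highest, and Myl2 fell with a log2 fold change of -1.61 (SE 0.39) (DESeq2 adjusted p = 0.00733), lost without Sham replicate 3 or KPC_UA replicate 4 (adjusted p = 0.149 and 0.0529, respectively).

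The genes Adh1, Acss1, Gas1, Mdga1, Il6ra, Bhlhe40, Gadd45a and H19 also overlap annotated transcripts on the other strand, mostly predicted ones, from which their reads cannot be told apart without strand. So do Fbxo32, Foxo1, Il4ra, Cdkn1a, Smoc2, Cpne8, Gadl1, Auts2, Loxl2, Chst15, H2-Eb1 and Cd3e. The same holds for genes named above whose partner on the other strand is a named gene, namely Sult1a1 (Sgf29), Plin4 (Hdgfl2), Fbxl22 (Herc1), Hsd11b1 (Lamb3), Alas2 (Apex2), Igf1 (Igf1os), Ucp2 (Dnajb13) and Myl2 (Ccdc63), while Chst15 overlaps Fgfr2 on its own strand.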

How the data were processed

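RNA of tibialis anterior muscle was sequenced in 12 libraries, 4 per group. The tools named are bcl2fastq 2.17, Subread 1.5.2 and featureCounts, and the genome is GRCm38, per the submitters' processing notes. The aligner, gene annotation, strand setting and differential test of the authors are not given in the sources that were used. An RNeasy kit served for extraction and RNA integrity was checked, per the labels' protocols.

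The authors deposited 3 pairwise tables that give, for each gene, a normalised signal in every library, a log2 fold change, a p-value and an adjusted p-value. The deposited signal values were whole multiples of one step per library, which gave whole reads for 100% of values (tolerance 0.01), so they are read counts divided by a size factor set within each table. Genes with few reads are not listed (the lowest summed count was 81), and each test stayed within its table. Columns of other samples numbered 0.

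The test across genes was limma 3.58.1 in R 4.3.3 (variance trend, robust, two-sided) on log2(value + 1), for genes whose mean was at least 10, with Benjamini-Hochberg adjusted p under 0.05. DESeq2 1.42.0 and edgeR 4.0.16 were run on the recovered reads, and the scripts were tested on simulated data. Sample groups follow the labels, and no library was left out of the reported values. Gene symbols were matched by identifier for 13555 of 13583 genes. Coordinates come from GENCODE M21 (GRCm38), counted from 1, and promoters from RefSeq.

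The comparison and the 52 gene lists were chosen with earlier results of these data known. Genes were named by a rule that takes the 10 largest called changes in each direction (mean of at least 50, groups that do not overlap, predicted genes skipped), up to 3 smallest-p members of every list described, and 12 set genes (Fbxo32, Trim63, Foxo1, Ddit4, Gadd45a, Cdkn1a, Pdk4, Igf1, Mstn, Smox, Tfrc and Col1a1). Since limma called 0 genes, the first part was applied to DESeq2 calls, a choice made after seeing this, and 5 lists were added for having at least 2 such calls. Genes outside the rule, and the liver transcripts, were chosen after their values were seen. Some genes that the rule names are counted but not reported here. Alternatives were pseudocounts of 0.5 and 5, no filter and a mean of at least 50, TMM and quantile rescaling, limma without trend, edgeR over all 12 libraries, an absolute log2 fold change of at least 1, the replicate number as a block, the authors' adjusted p-values, and each library left out.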

Additional observations from a re-analysis of the deposited data

Results flagged for a closer look

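In 124 groups of 4 libraries, one for each of the 62 named genes in Sham and in KPC_UA, the highest and lowest values were compared with the nearest other value of the group. A gap above Dixon's critical value for 4 values at the 95% level occurred in 2 groups, and chance alone flags about 1 group in 20. Tfrc in KPC_UA replicate 1 had a normalised read count of 5369, at a gap of 0.932 of the range, while the other KPC_UA libraries were at 1273, 997 and 1295. Plin4 in Sham replicate 4 had a normalised read count of 5945, at a gap of 0.912 of the range, while the other Sham libraries were between 3054 and 3309.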

How the results depend on the processing

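For KPC_UA against Sham limma called 0 genes, and 0 were called with either pseudocount, either filter, TMM or quantile rescaling, limma without trend, edgeR, edgeR over all 12 libraries, the fold threshold or the replicate block in limma. DESeq2 called 91 and the authors' adjusted p-values 93 of the genes tested, and leaving out one library in limma gave 0 to 4, with 4 without Sham replicate 1 and 3 without KPC_UA replicate 1. DESeq2 calls ran from 27 (without Sham replicate 2) to 362 (without KPC_UA replicate 1), and were 94 with no filter and 99 with a mean of at least 50. For KPC_UA against KPC limma called 0, DESeq2 100, the authors' adjusted p-values 99, edgeR over all 12 libraries 2, and leaving out one library gave 0 to 3, with 3 without KPC replicate 2. The cause of these differences was not tested. With the replicate number as a block DESeq2 called 83 and edgeR 1 against 0 without it. The correlations of deviations of same-numbered libraries were -0.153, -0.241, 0.135 and -0.054, so the numbers are not treated as pairing the samples. Of the alternatives for the 62 named genes, 1218 kept direction and side of the threshold, 69 passed the threshold where limma did not, and 7 changed sign, all for Mstn. The Mstn log2 fold change was -0.04 by limma, 0.0067 by DESeq2, 0.0071 by edgeR, 0.0066 in the authors' deposited table, and between -0.278 and 0.173 with one library left out. Alternatives by DESeq2 with libraries left out, filters or a block were chosen after seeing the data. Depth was 23.8 to 29.4 M reads per library, and genes such as S100a9, at 3 to 32 normalised reads, are limited by it.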
